A study of Rattus norvegicus with 98 samples.

Results

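The proteasome genes of the rat nasal epithelium were described across formaldehyde doses, routes and exposure times. A gene was taken as a member when its symbol in the platform annotation began with Psma, Psmb, Psmc, Psmd, Psme, Psmf or Psmg followed by a number, and each gene was read from its probe set with the highest mean signal over all 98 arrays. The rule gave 46 of the 14217 genes that a probe set named alone. They were 7 alpha and 6 constitutive beta subunits of the 20S core, 3 inducible beta subunits, 6 ATPase and 11 non-ATPase subunits of the 19S cap, 3 assembly chaperones of the cap, 4 assembly chaperones of the core, 3 activators and 1 inhibitor. The remaining pair, Psmc3ip and Psme3ip1, matched by letters only: their names refer to proteins that bind a proteasome subunit or activator. Psmb6 and Psme3 had no probe set of their own and have no values here.

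The proteasome degrades proteins that carry ubiquitin chains. Its barrel-shaped core holds the cutting sites, and the cap recognises, unfolds and feeds in the substrate. In cells under proteotoxic stress the genes of the complex can be raised together, in mammals through the transcription factor Nfe2l1. Interferon-gamma replaces the 3 cutting subunits of the core with the inducible Psmb8, Psmb9 and Psmb10, which changes the peptides offered on class I molecules. Formaldehyde is a reactive aldehyde that crosslinks proteins and DNA and is a nasal carcinogen in rats. The roles given below were worked out mainly in yeast, mouse and human cells.

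Each array held RNA of 1 male F344/NCrl rat, 8 weeks old, from the epithelial cells that proteases released from level II of its nose. In the first array set of 82 rats, animals breathed 0.7, 2 or 6 ppm formaldehyde or clean air in whole-body chambers for 6 hours a day, 5 days a week, and were compared at 6 h, 24 h, 5 days, 8 days and 19 days. In the second set of 16 rats, all at 6 h, 4 animals breathed 15 ppm formaldehyde, 4 had 400 mM formaldehyde instilled in 40 ul per nostril, 4 had water instilled and 4 breathed air. Groups held 4 rats, apart from 5 in the 2 ppm group at 5 days and 5 in the air group at 8 days. The treatment field of the 0.7 ppm group at 8 days reads 0.07, and the group was kept as its title gives it.

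Signals are log2 values of the authors' processed table, in which the medians of the arrays lay between 5.93 and 6.07. Arrays of 1 group correlated at 0.962 or higher, and no 2 arrays were identical. Differences were tested with limma over 31042 probe sets, and a gene was called at an adjusted p below 0.05. No filter on signal was applied, so all 46 members were tested. Their mean signals ran from 7.69 to 12.38, all above the median of all probe sets, 6.05. The shares of all probe sets given below are therefore not matched to the members in signal. The epithelial genes Epcam, Krt5 and Krt15 had mean signals of 12.22, 12.02 and 13.45, and the olfactory neuron gene Omp, at 11.96, was also present in the released cells. So were the erythroid gene Hbb, at 14.47, the stromal gene Col1a1, at 13.14, and the macrophage and dendritic cell marker Cd74, at 12.38. In such mixed cells, fewer cells of a type and less RNA per cell cannot be told apart.

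One 6-h exposure to 15 ppm raised 4 members, and all 4 belong to the 19S cap or its assembly. Psmd7, a cap subunit that holds the deubiquitinase Psmd14 in place, had the lowest adjusted p of the 46. Its signal was 10.05, 10.05, 10.17 and 10.02 in the 15 ppm rats, against 9.70, 9.80, 9.77 and 9.73 in the air rats. No animal of one group reached the other, and the log2 change was 0.32 (SE 0.05, adjusted p = 1.29e-05), which is 1.25-fold. Psmd5, a chaperone that holds ATPase subunits during assembly of the cap, had 9.77, 9.77, 9.90 and 9.73 in the 15 ppm rats and 9.58, 9.51, 9.55 and 9.52 in the air rats. It rose by 0.25 (SE 0.06, adjusted p = 0.00413), again without overlap. Psmd12, a structural subunit of the cap's lid, had 9.79, 9.83, 9.94 and 9.72 in the 15 ppm rats and 9.56, 9.55, 9.56 and 9.49 in the air rats. These groups did not overlap either, with a log2 change of 0.28 (SE 0.08, adjusted p = 0.0122). Psmc6, an ATPase of the ring that unfolds substrates, had 9.78, 9.78, 9.85 and 9.70 in the 15 ppm rats and 9.61, 9.44, 9.70 and 9.43 in the air rats. Its change was 0.23 (SE 0.08, adjusted p = 0.0447), and it depends on the control, since the air rats of the first array set had 9.79, 9.81, 9.91 and 9.89. Against those rats the change of Psmc6 was -0.07 (adjusted p = 0.564), and its call was lost when any of the rats 338, 341, 342, 321, 322 or 325 was left out. The other Psmc6 probe sets were not called at 15 ppm, with changes of 0.26 (adjusted p = 0.136) and 0.02 (adjusted p = 0.953).

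The 4 higher members are 8.70% of 46, where 4.32% of all probe sets were called higher at 15 ppm. No member was called lower, against 4.17% of all probe sets. Either way the share of members was 8.70%, near the 8.49% of all probe sets. Groups did not overlap for 6 higher members and 1 lower member, and 8.02% and 8.31% of all probe sets were separated in those directions. The median change of the 46 members was 0.03, beside 0.01 over all probe sets, with 25 members above 0 and 21 below. Among members that missed the threshold, Psma3, an alpha subunit of the core, had a change of 0.21 (adjusted p = 0.0509). The ubiquitin receptor Psmd4 had 0.18 (adjusted p = 0.0670), and Psme4, a nuclear activator linked to histone breakdown, had -0.28 (adjusted p = 0.0740). Leaving out rat 342 of the 15 ppm group left 2 calls, and Psmd12 then had an adjusted p of 0.0777. Psmd7 and Psmd5 stayed called in each of 8 fits that left out 1 rat and each of 11 alternative settings.

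**Figure D1:**
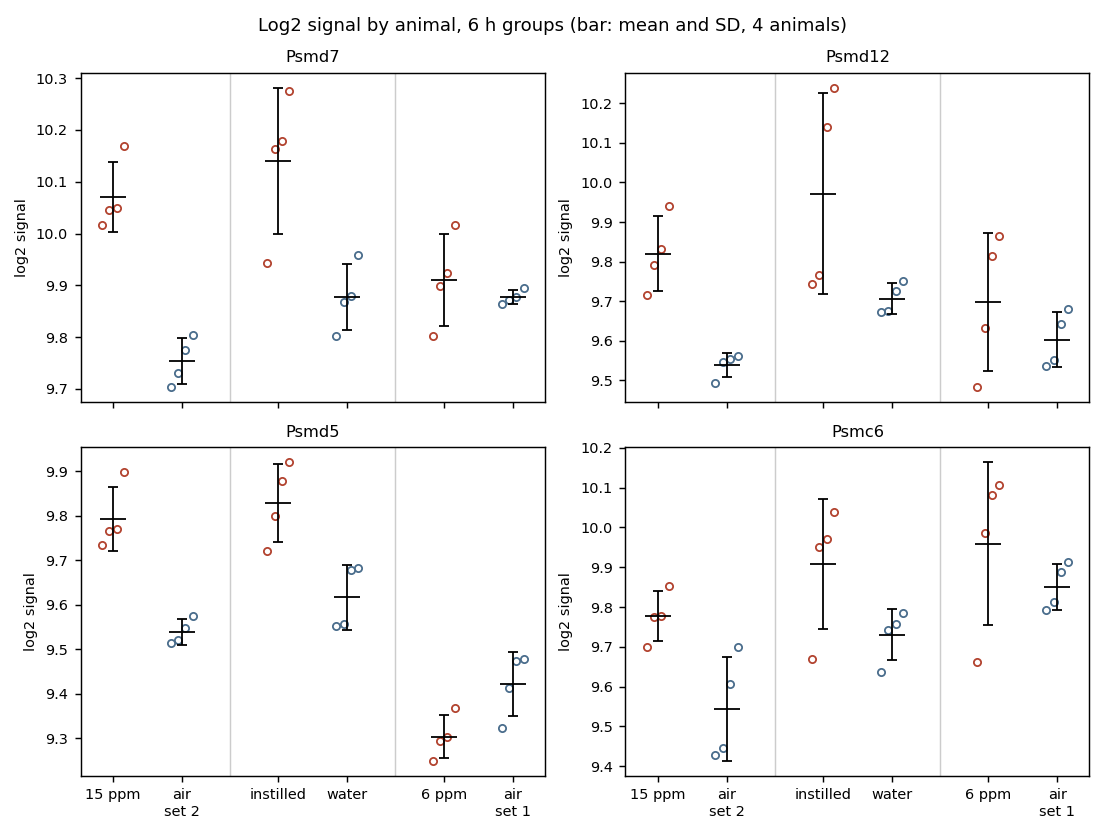
Log2 signal of Psmd7, Psmd12, Psmd5 and Psmc6 in each rat of the 6-h groups, with bars for the mean and SD of 4 rats. In the second array set the 15 ppm rats lie above the air rats for Psmd7, Psmd12 and Psmd5, whereas the Psmc6 values of the 15 ppm rats, 9.70 to 9.85, fall within or below the range of the air rats of the first set, 9.79 to 9.91.

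A second probe set of Psmd7 gave 0.31 at 15 ppm (adjusted p = 0.00350) and 0.35 after instillation (adjusted p = 0.00022). The promoters of Psmd7 and Psmd5, 300 bases that end shortly after the annotated start in RefSeq on rat build GRCr8, are shown because these genes rose by both routes and in every alternative tried at 15 ppm. Capitals mark CCAAT, the box that NF-Y binds, and the core of the interferon-stimulated element, GAAA and GAAA with any 2 bases between, on either strand. ATTGG, and TTTC and TTTC with any 2 bases between, are the same boxes read on the other strand. No window shown held the element bound by Nfe2l1 or the heat shock element, which were also searched.
Psmd7, chr19:52411267-52411566, minus strand: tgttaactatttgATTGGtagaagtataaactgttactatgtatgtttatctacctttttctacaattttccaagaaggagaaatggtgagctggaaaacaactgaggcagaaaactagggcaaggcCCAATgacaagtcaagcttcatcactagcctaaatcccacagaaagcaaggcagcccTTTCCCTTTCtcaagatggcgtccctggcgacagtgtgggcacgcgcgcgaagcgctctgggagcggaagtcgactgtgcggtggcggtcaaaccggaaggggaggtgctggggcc
Psmd5, chr3:38548441-38548740, minus strand: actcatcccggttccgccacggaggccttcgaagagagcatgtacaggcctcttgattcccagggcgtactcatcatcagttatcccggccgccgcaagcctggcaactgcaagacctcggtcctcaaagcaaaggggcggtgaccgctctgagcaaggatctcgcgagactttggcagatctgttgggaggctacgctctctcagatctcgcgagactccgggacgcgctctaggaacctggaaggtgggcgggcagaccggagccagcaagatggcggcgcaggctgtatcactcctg
Psmd7 holds 2 CCAAT boxes and 1 interferon-stimulated element, and in Psmd5 none of the motifs searched was found. The table listed 42 of the 46 members and not Psmd12. Over these 42, CCAAT was present in 52.4%, against 37.7% of 27457 promoters. TGACNNNGC, the element bound by Nfe2l1 and Nfe2l2 with small Maf proteins, was present in 16.7% of members and 12.2% of all promoters. The heat shock element, read as GAA, TTC and GAA with any 2 bases between them, was found in 0 members and 0.736% of all promoters.

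Against instilled water, 8 members were called higher and 4 lower in rats with instilled formaldehyde. Together they are 26.1% of the members, where 22.2% of all probe sets were called. The higher and lower members are 17.4% and 8.70% of the 46, where 9.83% of all probe sets were called higher and 12.4% lower. With cyclic loess between arrays in place of the deposited scaling, the counts were 17 higher and 2 lower, and a fit on the rats of this comparison alone called 2, both higher. The shares of all probe sets in these fits are not given here. The median change was 0.11 for the members and 0.02 for all probe sets, and 33 members lay above 0. Groups did not overlap for 6 higher and 3 lower members, where 8.94% and 9.76% of all probe sets were separated.

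Of the 11 non-ATPase subunits of the cap, 4 rose and 1 fell. Psmd8, a lid subunit, had 10.65, 10.57, 10.39 and 10.60 in the formaldehyde-instilled rats and 10.13, 10.25, 10.10 and 10.10 in the water-instilled rats. The groups were separate and the change was 0.41 (SE 0.08, adjusted p = 6.58e-05). Psmd7 had 10.16, 10.18, 9.94 and 10.28 in the formaldehyde-instilled rats and 9.96, 9.87, 9.88 and 9.80 in the water-instilled rats. One formaldehyde value lay just below the highest water value, and the change was 0.26 (SE 0.05, adjusted p = 0.000105). Psmd12 rose by 0.27 (adjusted p = 0.00835), with 10.24, 9.77, 9.74 and 10.14 in the formaldehyde-instilled rats and 9.75, 9.67, 9.68 and 9.73 in the water-instilled rats. Those 4 formaldehyde values fall in 2 pairs, one close to the water rats and one well above them, and without rat 365 or 374 of the upper pair the call was lost. Psmd3, another lid subunit, rose by 0.25 (adjusted p = 0.0225), but the call was lost without rat 369, 372, 355 or 352, with changes of 0.19 to 0.24. Psmd14, the deubiquitinase that removes the chain before the substrate enters, fell by 0.25 (adjusted p = 0.00733). It had 10.58, 10.36, 10.23 and 10.40 in the formaldehyde-instilled rats and 10.70, 10.53, 10.69 and 10.63 in the water-instilled rats. Its other 2 probe sets had changes of -0.09 and 0.16 and were not called, so the probe sets of Psmd14 disagree, and without rat 372 the change was -0.19 (adjusted p = 0.0576).

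One of the 6 ATPases was called, Psmc1, whose tail opens the gate of the core. It had 10.41, 10.34, 9.97 and 10.50 in the formaldehyde-instilled rats and 9.98, 10.07, 10.03 and 10.00 in the water-instilled rats, with a change of 0.28 (SE 0.07, adjusted p = 0.00261). Rat 372 was just below the water range and the other 3 were above it. Of the 3 cap chaperones Psmd5 alone was called, at 0.21 (SE 0.06, adjusted p = 0.00853). Its values were 9.92, 9.80, 9.72 and 9.88 in the formaldehyde-instilled rats, above each of the 9.68, 9.55, 9.68 and 9.56 in the water-instilled rats.

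Psmd11, a lid subunit, and the ubiquitin receptor Psmd4 had changes of 0.17 (adjusted p = 0.124) and 0.12 (adjusted p = 0.179). Another Psmd11 probe set, with a mean signal of 10.09, changed by -0.14, and a dim one, at 4.09, by 0.14. Neither was called.

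In the core, 1 of 7 alpha subunits rose, and 1 of 6 constitutive beta subunits rose while 1 fell. Psma3 had 9.86, 9.52, 9.66 and 9.80 in the formaldehyde-instilled rats and 9.38, 9.41, 9.44 and 9.30 in the water-instilled rats, without overlap. Its change was 0.33 (SE 0.07, adjusted p = 0.000210). Psmb4, a structural beta subunit, had 12.46, 12.24, 12.10 and 12.47 in the formaldehyde-instilled rats and 11.99, 11.99, 11.92 and 11.93 in the water-instilled rats. These were separate too, with a change of 0.36 (SE 0.08, adjusted p = 0.000178). Psmb7, which carries the trypsin-like cutting site, had 10.43, 10.83, 10.88 and 10.50 in the formaldehyde-instilled rats and 11.00, 10.99, 10.91 and 10.83 in the water-instilled rats. It fell by 0.27 (SE 0.08, adjusted p = 0.00461), with 2 of the 4 formaldehyde rats well below the water rats, and without rat 365 the change was -0.19 (adjusted p = 0.0651). Psmb5, which carries the chymotrypsin-like site, had a change of 0.02 (adjusted p = 0.889), and 0.01 at 15 ppm.

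Among the regulators and core chaperones only falls were called. Psmg1, which with Psmg2 builds the alpha ring, had 9.28, 9.24, 9.18 and 9.19 in the formaldehyde-instilled rats and 9.57, 9.48, 9.54 and 9.33 in the water-instilled rats. The groups did not overlap, and it fell by 0.26 (SE 0.08, adjusted p = 0.00835), though with cyclic loess the change was -0.18 (adjusted p = 0.0905). Psmg2 had 8.78, 8.90, 8.79 and 8.69 in the formaldehyde-instilled rats against 9.18, 8.92, 8.93 and 8.90 in the water-instilled rats, but was not called. Psme4 had 9.29, 8.76, 9.24 and 9.22 in the formaldehyde-instilled rats and 9.34, 9.28, 9.56 and 9.51 in the water-instilled rats, a change of -0.29 (adjusted p = 0.0262). Without rat 369, which had the lowest value, the change was -0.17 (adjusted p = 0.258), and the call was also lost without water rat 352 (adjusted p = 0.104) or 354 (adjusted p = 0.0823). With cyclic loess the change was -0.20 (adjusted p = 0.141). One further Psme4 probe set was called lower by both routes, with -0.45 at 15 ppm (adjusted p = 0.00610) and -0.83 after instillation (adjusted p = 4.28e-08), and another was not called by either. The inhibitor Psmf1 had a change of -0.24 and was not called (adjusted p = 0.0810).

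**Figure D2:**
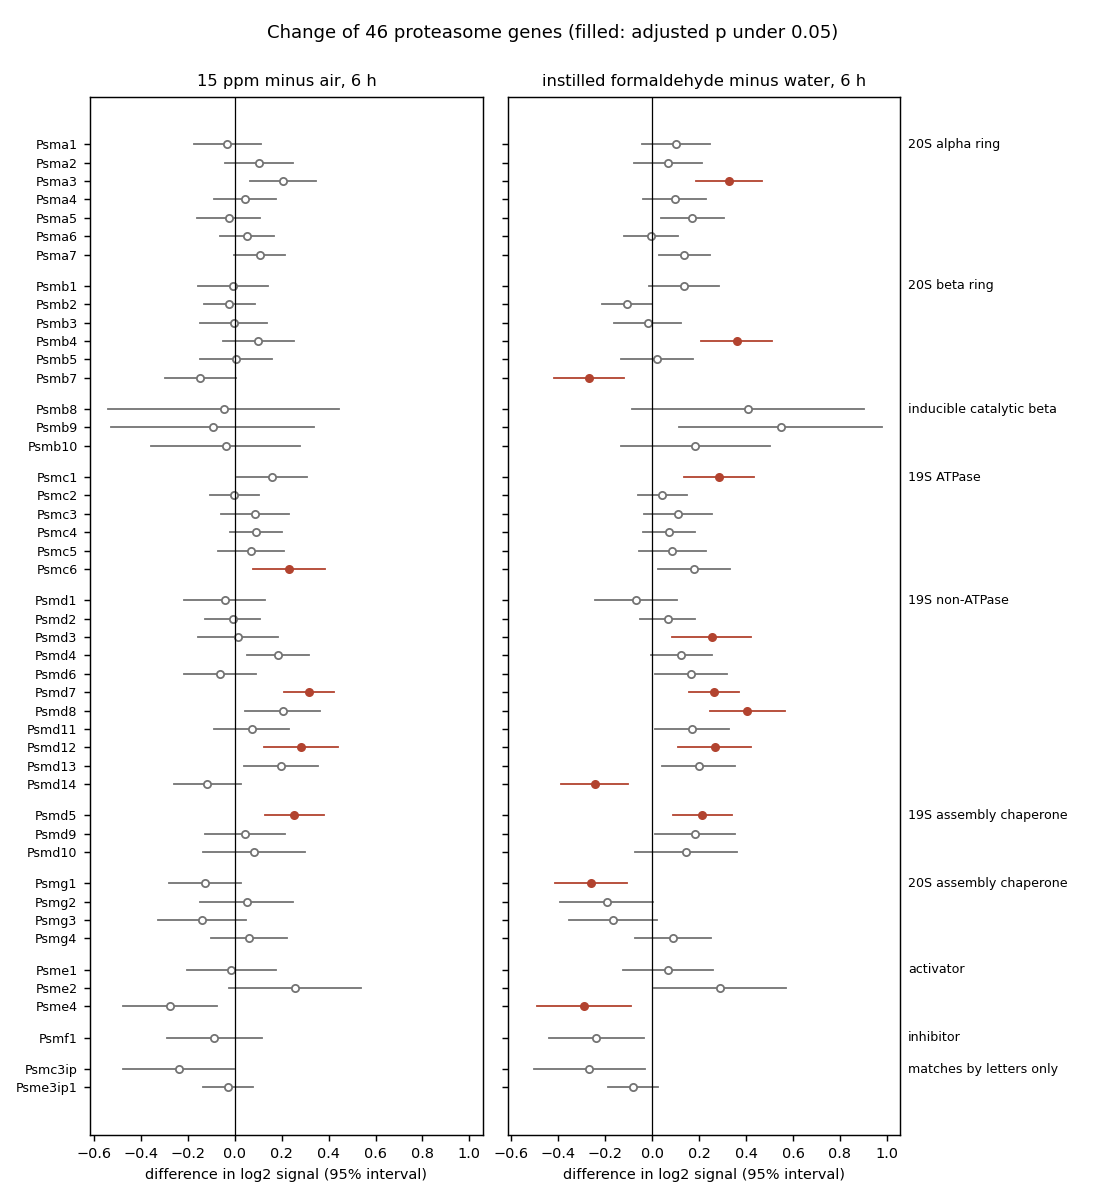
Log2 change of each of the 46 members at 6 h, 15 ppm against air and instilled formaldehyde against instilled water, with 95% intervals and members ordered by role. Most intervals span 0, and the called members lie on both sides of 0 after instillation and on the higher side at 15 ppm.

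**Figure D3:**
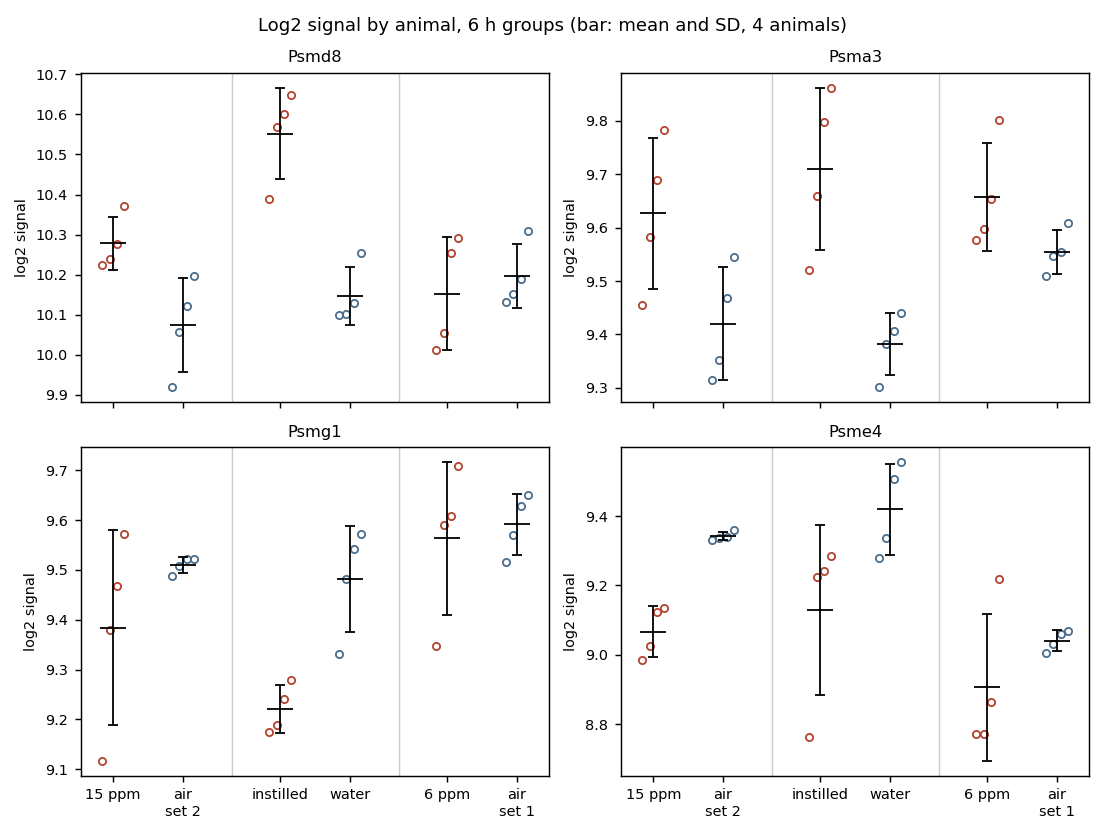
Log2 signal of Psmd8, Psma3, Psmg1 and Psme4 in each rat of the 6-h groups, with bars for the mean and SD of 4 rats. With instilled formaldehyde Psmd8 and Psma3 lie above the water rats and Psmg1 lies below them without overlap, and for Psme4 rat 369 at 8.76 stands below the other 3.

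Psmd7, Psmd12 and Psmd5 were called higher by both routes, and no member was called lower by both. These are 6.52% and 0% of the members, where 2.99% and 3.21% of all probe sets were called in both. After instillation Psmd7 and Psmd5 each lost the call in 1 of 11 alternative settings, with adjusted p up to 0.104 and 0.136. Psmd12 lost it in 2, with adjusted p up to 0.203. The sign of the change was shared for 34 of 46 members, which is 73.9%, against 72.5% of all probe sets. The routes have separate controls, air for inhalation and water for instillation. When the inhalation effect was subtracted from the instillation effect, 0 members were called, where 0.879% of all probe sets were. At an unadjusted p below 0.05 there were 4 members, Psmb9, Psmb4, Psmd6 and Psma5, all with a larger change after instillation, where 4.7% of all probe sets were higher, and the lowest adjusted p was 0.351. For Psmd7 the difference was -0.05, with a 95% interval of -0.21 to 0.10. For Psmd5 it was -0.04, with an interval of -0.22 to 0.14. For Psmd12 it was -0.02, with an interval of -0.24 to 0.21. Psmd8, called after instillation only, had a difference of 0.20 with an interval of -0.03 to 0.43, so its 2 changes were not shown to differ.

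Genes outside the symbol rule that act with the complex were read in the same fit, and the counts below stand beside the 4.32% higher and 4.17% lower of all probe sets at 15 ppm and the 9.83% higher and 12.4% lower after instillation. Of 7 heat shock factor targets, 6 rose at 15 ppm and 7 after instillation, with median changes of 0.56 and 0.96. Hspb1, a small heat shock protein that keeps unfolded proteins soluble, had changes of 1.82 at 15 ppm and 3.02 after instillation. Among 17 proteasome cofactors outside the rule, 2 rose and 1 fell at 15 ppm, and 2 rose and 4 fell after instillation. These are 11.8% and 5.88% of the 17 at 15 ppm and 11.8% and 23.5% after instillation. Zfand2a, a heat shock target that binds the cap in cells exposed to arsenite, changed most of the 17: it rose by 1.81 at 15 ppm (adjusted p = 2.1e-13) and by 2.76 after instillation (adjusted p = 2.25e-22). Zfand5, which activates the proteasome in muscle atrophy in mice, rose by 0.34 and by 0.57. The scaffold Ecpas fell by 0.63 after instillation.

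Of 11 genes for regulators of proteasome transcription, 2 rose and 1 fell at 15 ppm, and 2 rose and 3 fell after instillation. That is 18.2% and 9.09% of the 11 at 15 ppm and 18.2% and 27.3% after instillation. The small Maf partners Mafk and Mafg rose, by 1.01 and 0.59 at 15 ppm and by 1.48 and 0.64 after instillation. Ngly1, which strips sugars from Nfe2l1 and is needed for its activity, fell by 0.28 at 15 ppm and by 0.48 after instillation. Ddi2, the protease that releases Nfe2l1, fell by 0.47 after instillation. In a list of 12 ubiquitin genes, 0 were called at 15 ppm, while 2 rose and 2 fell after instillation, which is 16.7% each way against 9.83% and 12.4% of all probe sets.

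Markers of other cells differed between the same groups. All 4 neutrophil markers with a probe set rose by both routes, with median changes of 1.73 at 15 ppm and 2.48 after instillation. These markers were S100a8, S100a9, Cxcr2 and Csf3r, with mean signals of 9.16, 10.45, 4.69 and 5.55. S100a8 and S100a9 therefore make up most of the sum of the 4 markers. Their summed signal, as log2, was 11.81 to 12.09 in the 15 ppm rats and 9.51 to 10.36 in the air rats, and 12.88 to 13.78 in the formaldehyde-instilled rats and 10.40 to 11.20 in the water-instilled rats. The 3 pan-leukocyte markers had a median change of 0.28 at 15 ppm, where 0 were called, and of 0.90 after instillation, where 3 were called. Their summed signal was 9.82 to 10.50 in the 15 ppm rats and 9.75 to 10.19 in the air rats, and 10.83 to 11.28 in the formaldehyde-instilled rats and 10.01 to 10.24 in the water-instilled rats. No marker was listed at 0. None of the 9 lymphocyte markers was called at 15 ppm, and 2 rose after instillation. The RNA integrity number was 7.7 to 8.2 in the 15 ppm rats and 7.3 to 7.8 in the air rats, and 8.3 to 8.4 in the formaldehyde-instilled rats and 7.5 to 8.3 in the water-instilled rats. With that number as a covariate Psmd7, Psmd12 and Psmd5 stayed called at 15 ppm and Psmc6 had an adjusted p of 0.100, while 9 members rose and 4 fell after instillation. The shares of all probe sets with that covariate are not given here. The part of the leukocytes in the proteasome values was not tested.

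At 6 ppm and below, no member was called at any time. The 15 comparisons of 0.7, 2 and 6 ppm with air of the same time gave 0 calls among 690 values with limma, and the lowest adjusted p was 0.117. Few genes of any kind passed at these doses. At 6 ppm 0.245% of all probe sets were called at 6 h, 0.00322% at 24 h, 0.119% at 5 days, 0.029% at 8 days and 0.412% at 19 days. At 2 ppm the shares were 0.00322% at 6 h, 0.0741% at 5 days and 0% at the other times, and at 0.7 ppm 0.00644% at 5 days and 0% at the other times. At an unadjusted p below 0.05 there were 53 of 690 member values, which is 7.68%, with 9 higher and 44 lower, against 6.28% of all probe-set values, 3.06% higher and 3.22% lower. Most lower values came from 2 times, with 14 at 2 ppm and 7 at 6 ppm at 6 h, and 8 and 9 at 19 days. Doses of 1 time share their air rats, so the 690 values are not independent. For 43 members, leaving out the 3 inducible subunits, the 95% intervals at these doses reached no lower than -0.67, which is 1.59-fold lower, and no higher than 0.48, which is 1.40-fold higher. The median change per comparison ran between -0.10 and 0.04.

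Psmd7, the member that rose most clearly at 15 ppm, had changes between -0.09 and 0.15 in the 15 low-dose comparisons. At 6 ppm and 6 h it had 9.90, 10.02, 9.80 and 9.92 in exposed rats and 9.90, 9.86, 9.88 and 9.87 in air rats, with full overlap. Psmd5 had 9.25, 9.37, 9.29 and 9.30 at 6 ppm and 9.41, 9.48, 9.47 and 9.32 in the same air rats, a change of -0.12 (adjusted p = 0.430). Of the rats exposed to 6 ppm, 1 reached the air range and 3 lay below it. The 15 ppm effect minus the 6 ppm effect was called for these 2 members, where 1.02% of all probe sets were called higher and 0.171% lower. It was 0.37 for Psmd5 (SE 0.09, adjusted p = 0.0143) and 0.28 for Psmd7 (SE 0.08, adjusted p = 0.0358). Each effect is taken within its own array set, and without rat 342 of the 15 ppm group neither difference was called. The call for Psmd7 was lost in 9 of 16 fits that left out 1 rat. With the RNA integrity number as a covariate the count was also 0.

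The largest run of falls without a call was in the 2 ppm rats at 6 h. There 40 of 46 members were below 0 with a median of -0.10, and 14 were lower at an unadjusted p below 0.05, where 3.19% of all probe sets were. Groups did not overlap for 9 lower members, where 1.93% of all probe sets were separated that way. The lowest adjusted p was 0.444, for Psmd5, which had 9.33, 9.29, 9.12 and 9.06 in the 2 ppm rats and 9.41, 9.48, 9.47 and 9.32 in the air rats. Psma7, an alpha subunit, had 11.41, 11.52, 11.44 and 11.43 in the 2 ppm rats and 11.57, 11.57, 11.63 and 11.59 in the air rats. The groups did not overlap for Psma7, and for Psmd5 the highest exposed rat just passed the lowest air rat. With cyclic loess the median of the 46 members was -0.05. Members also moved together between rats, with a median correlation of 0.23 over their pairs, so these counts are not of independent genes. The RNA integrity number was 7.2 to 8.6 in the 2 ppm rats and 7.8 to 8.3 in the air rats.

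At 19 days 6 ppm gave 9 lower members at an unadjusted p below 0.05, where 7.44% of all probe sets were lower, and 2 ppm gave 8, where 5.37% were. The lowest adjusted p at these doses belonged to Psmg3, a core chaperone, with 7.47, 7.69, 7.66 and 7.53 in the 6 ppm rats and 8.13, 7.77, 7.84 and 7.86 in the air rats. Psmd10, a cap chaperone also known as gankyrin, had 9.25, 9.40, 9.19 and 9.31 in the 6 ppm rats and 9.60, 9.67, 9.64 and 9.51 in the air rats. Neither pair of groups overlapped, with changes of -0.31 for Psmg3 and -0.32 for Psmd10. The 2 ppm and 6 ppm groups share their air rats, so the falls at both doses are not independent. For both genes these air rats also had the highest mean of the air groups in the first set. Psmd10 averaged 9.60 in them and 9.25 to 9.39 in air at the other times. Psmg3 averaged 7.90 in them and 7.69 to 7.82 in air at the other times. Whether the exposed rats were low or these air rats high was not tested. Across the 5 times, 0 members differed in the 6 ppm effect, where 0.0129% of all probe sets did.

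**Figure D4:**
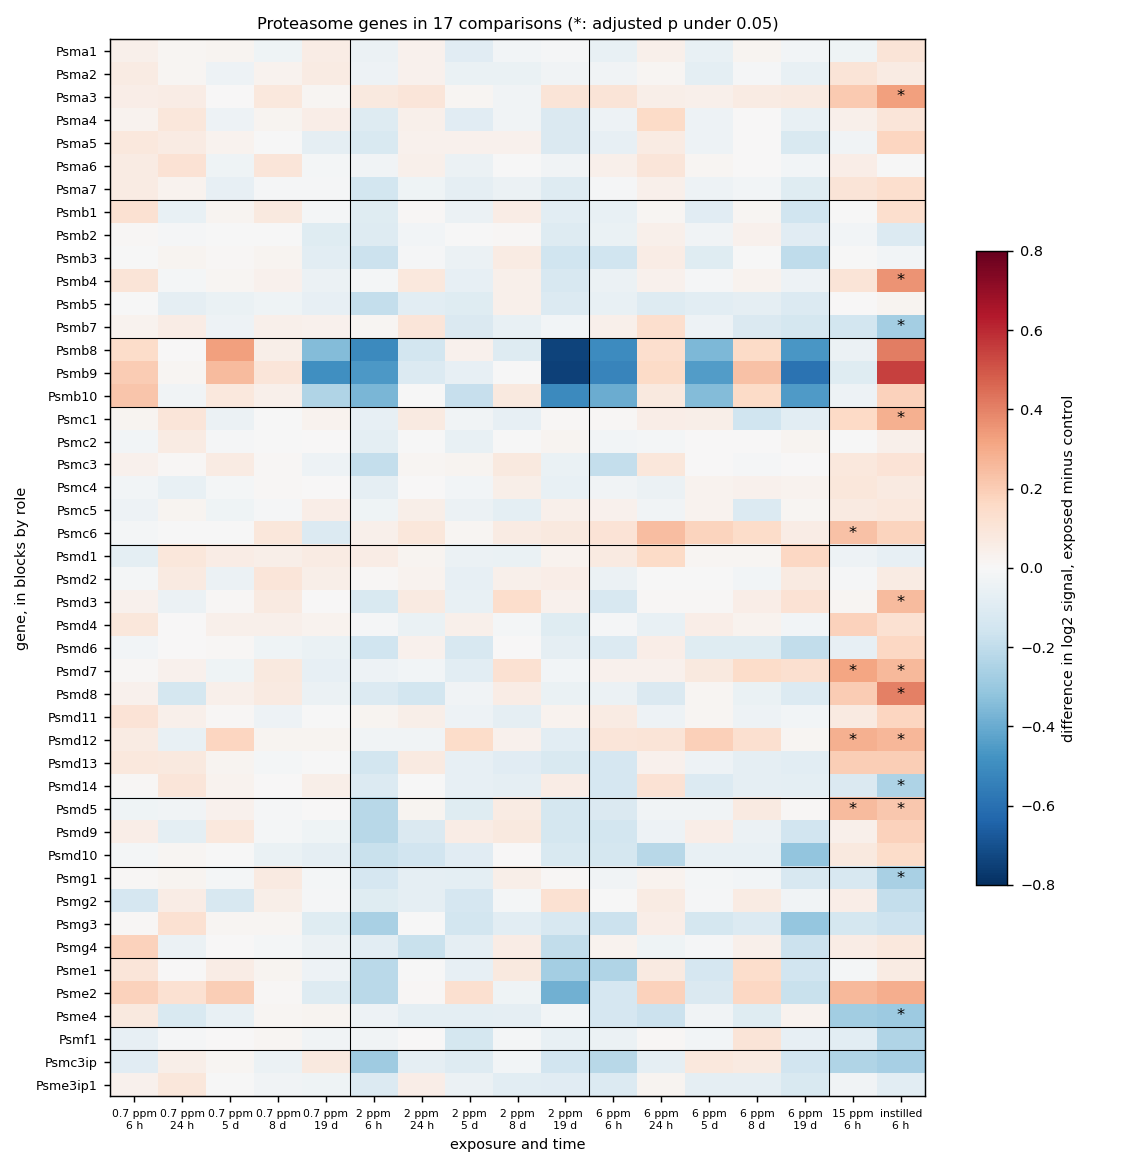
Log2 change of each of the 46 members (rows, by role) in each exposure group against its control (columns, by dose, route and time), with the called changes marked. Marks appear only in the 15 ppm and instillation columns, and the inducible subunits hold the deepest lower values at 2 and 6 ppm at 6 h and 19 days, but are above 0 at 6 ppm at 24 h and 8 days.

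The 3 inducible subunits varied most from rat to rat. The residual SD of Psmb8 was 0.356, of Psmb9 0.313 and of Psmb10 0.229, greater than for 91.9%, 88.6% and 76.3% of all probe sets. The median over the 46 members was 0.106, and 0.162 over all probe sets, while the SD of Psmd7, 0.071, was greater than for 0.396% of probe sets. None of the 3 was called at any dose or route against its own control group in the fit on all rats. Psmb9 had 10.18, 9.77, 10.46 and 9.94 in the formaldehyde-instilled rats and 9.46, 9.75, 9.08 and 9.87 in the water-instilled rats, a change of 0.55 (adjusted p = 0.0589) that became 0.63 with cyclic loess (adjusted p = 0.0215). The groups overlapped by 1 rat, and 3 of 4 formaldehyde rats were above each water rat. Leaving out rat 369, 356 or 354 gave changes of 0.62 to 0.66 with adjusted p of 0.0350 to 0.0497. Over all 8 fits that left out 1 rat the change ran from 0.40 to 0.66, with adjusted p as high as 0.249. Psmb8 had 9.66, 8.92, 10.04 and 9.15 in the formaldehyde-instilled rats and 8.93, 9.37, 8.56 and 9.26 in the water-instilled rats, a change of 0.41 (adjusted p = 0.251). Psmb10 had a change of 0.18 (adjusted p = 0.456).

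At 15 ppm Psmb8, Psmb9 and Psmb10 had changes of -0.05, -0.09 and -0.04. At 6 ppm and 6 h the changes were -0.50, -0.53 and -0.39. The Psmb9 values there were 9.39, 9.48, 8.84 and 8.40 in the 6 ppm rats and 9.43, 9.61, 9.60 and 9.57 in the air rats. Of the exposed rats 1 lay within the air range and 3 lay below it. At 19 days Psmb9 had 9.73, 8.98, 9.62 and 8.74 at 2 ppm, 9.66, 9.53, 9.39 and 9.14 at 6 ppm and 10.07, 9.69, 9.75 and 10.55 in air. The changes were -0.75 at 2 ppm (adjusted p = 0.424) and -0.59 at 6 ppm, and the 6 ppm rats were all below the air rats. At 0.7 ppm the 19-day change was -0.49, from means of 9.52 in the exposed rats and 10.02 in the same air rats. The air rats of the first set averaged 9.42 to 9.82 for Psmb9 at the other times, below the 19-day air mean. The other times did not share one direction. At 6 ppm Psmb9 had changes of 0.15 at 24 h, -0.45 at 5 days and 0.23 at 8 days, and Psmb8 had 0.13, -0.36 and 0.15 at these times. At 2 ppm Psmb9 had -0.46 at 6 h and between -0.11 and -0.01 from 24 h to 8 days. At 0.7 ppm it had 0.20 at 6 h and 0.25 at 5 days.

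**Figure D5:**
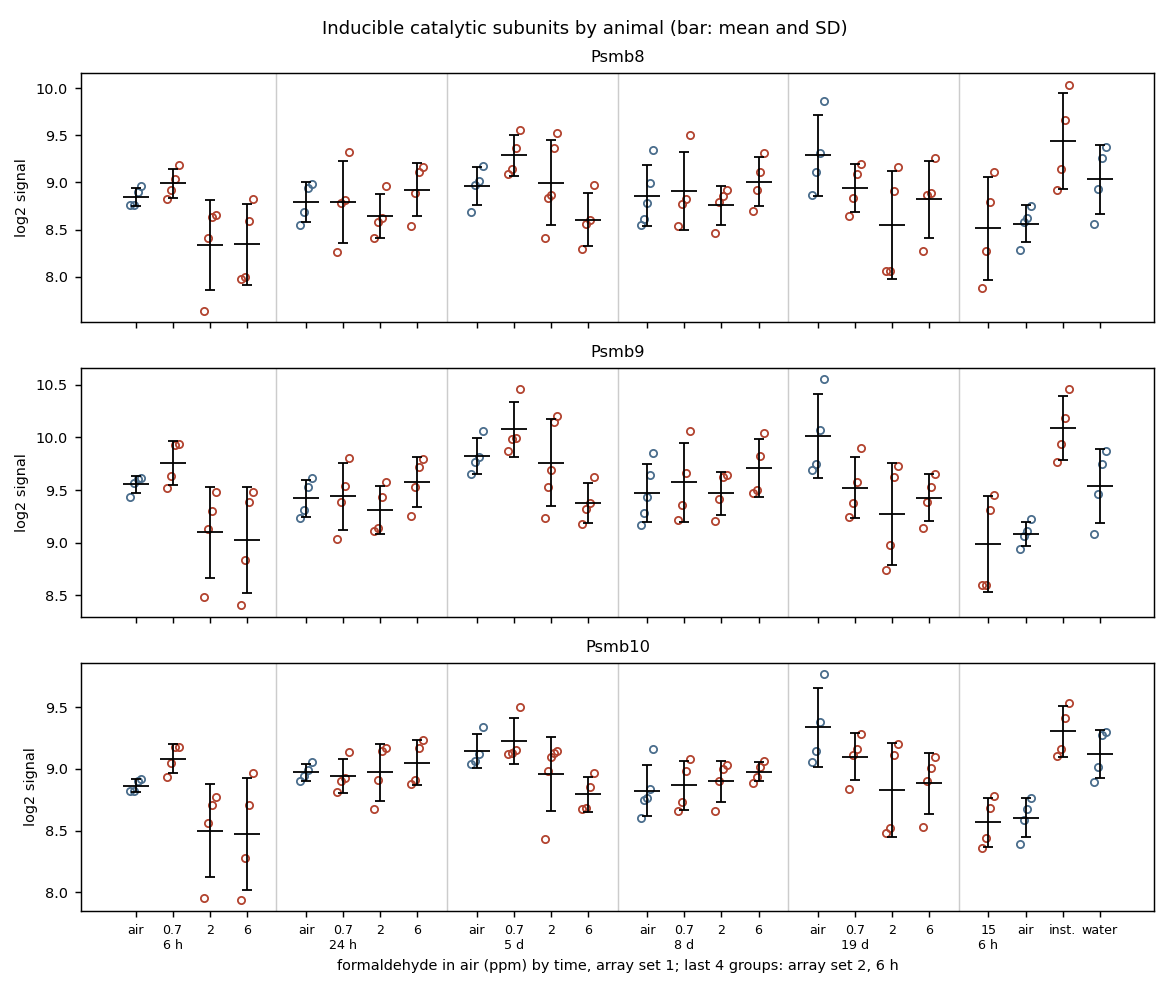
Log2 signal of Psmb8, Psmb9 and Psmb10 in each rat, by dose, route and time, with bars for the group mean and SD. Rats of 1 group spread over more than the gap between most groups. The Psmb9 mean of the formaldehyde-instilled rats, 10.09, is close to 10.08 at the lowest inhaled dose at 5 days and 10.02 in air at 19 days. The instilled rats belong to the second array set and those groups to the first, so their levels are not directly comparable.

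The inducible subunits moved together within groups. Deviations from the group mean over 98 rats correlated at 0.94 for Psmb8 with Psmb9 (Spearman 0.95), 0.89 for Psmb9 with Psmb10 (Spearman 0.89) and 0.85 for Psmb8 with Psmb10 (Spearman 0.87). In a permutation test of 13 pairs the adjusted p was 1e-05 for these, the smallest the test could give. Without the 2 rats farthest from the median these values were 0.94, 0.88 and 0.84 in that order. They were 0.94, 0.89 and 0.85 within the first array set and 0.95, 0.90 and 0.93 within the second. Psmb9 also went with the interferon-inducible activators Psme1 (0.83, Spearman 0.81) and Psme2 (0.83, Spearman 0.84), and with the peptide transporters Tap1 (0.80, Spearman 0.82) and Tap2 (0.74, Spearman 0.75). Each of the 4 had an adjusted permutation p of 1e-05, and without the 2 farthest rats they stood at 0.81, 0.83, 0.83 and 0.72. The Psme2 value was 0.89 in the first set and 0.46 in the second, and the other 3 lay between 0.73 and 0.85 within each set.

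Psmb9 correlated with Cd74, the class II invariant chain, at 0.67 (Spearman 0.66). Its value with the leukocyte marker Ptprc was 0.51 (Spearman 0.50), with 0.59 in the first array set and -0.04 in the second. With Psmb5, the constitutive chymotrypsin-like subunit, the correlation was -0.12 (permutation p = 0.353, Spearman -0.12). That value was -0.22 in the first set and 0.51 in the second, so it did not hold its sign between sets. Among the members called by both routes, Psmd7 correlated with Psmd12 at 0.43 (Spearman 0.38, adjusted permutation p = 0.00025). Psmd7 with Psmd5 gave 0.40 (Spearman 0.33, adjusted permutation p = 0.00122), and Psmd12 with Psmd5 gave 0.41 (Spearman 0.44, adjusted permutation p = 0.00027). Without the 2 farthest rats the 3 values were 0.40, 0.37 and 0.37, and within the array sets they lay between 0.34 and 0.75. Over all 1035 pairs of members the values ran from -0.54 to 0.94 with a median of 0.23. All these values share the arrays' scaling.

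Of 10 other genes of class I antigen processing, 3 rose after instillation, where 9.83% of all probe sets were called higher. These were the interferon-responsive regulators Irf1, at 1.03, and Nlrc5, at 0.63, and the transporter Tap1, at 0.79. At 15 ppm the peptide-loading factor Pdia3 fell by 0.25 and none of the 10 rose, where 4.17% of all probe sets were called lower and 4.32% higher. Psme1 and Psme2 form the activator that interferon-gamma induces. Psme2 had 11.36, 11.08, 11.43 and 11.22 in the formaldehyde-instilled rats and 10.93, 11.03, 11.01 and 10.95 in the water-instilled rats. The groups were separate, but the change of 0.29 was not called (adjusted p = 0.139).

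In the RefSeq order Tap2, Psmb8, Tap1 and Psmb9 follow each other on chr20. The promoters of the inducible subunits and of Psme2 are shown, with the same capitals, because these genes moved together between rats.
Psmb8, chr20:4656982-4657281, minus strand: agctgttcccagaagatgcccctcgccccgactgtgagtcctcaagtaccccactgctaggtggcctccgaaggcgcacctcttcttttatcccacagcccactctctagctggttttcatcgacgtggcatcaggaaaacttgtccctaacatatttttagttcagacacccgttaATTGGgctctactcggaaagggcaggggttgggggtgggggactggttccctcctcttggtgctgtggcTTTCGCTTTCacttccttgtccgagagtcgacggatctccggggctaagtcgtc
Psmb9, chr20:4668750-4669049, plus strand: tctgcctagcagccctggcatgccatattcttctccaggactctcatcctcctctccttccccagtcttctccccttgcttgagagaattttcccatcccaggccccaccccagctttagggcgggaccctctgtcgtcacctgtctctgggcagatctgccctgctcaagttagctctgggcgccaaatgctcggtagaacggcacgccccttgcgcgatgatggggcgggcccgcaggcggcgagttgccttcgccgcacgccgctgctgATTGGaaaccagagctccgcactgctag
Psmb10, chr19:50743243-50743542, minus strand: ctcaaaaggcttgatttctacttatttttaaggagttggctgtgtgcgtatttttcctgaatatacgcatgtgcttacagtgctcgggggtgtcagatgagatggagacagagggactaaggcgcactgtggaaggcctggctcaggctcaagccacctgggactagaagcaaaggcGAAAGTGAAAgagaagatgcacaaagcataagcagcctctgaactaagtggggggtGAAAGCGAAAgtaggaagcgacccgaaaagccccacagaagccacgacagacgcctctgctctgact
Psme2, chr15:33052702-33053001, minus strand: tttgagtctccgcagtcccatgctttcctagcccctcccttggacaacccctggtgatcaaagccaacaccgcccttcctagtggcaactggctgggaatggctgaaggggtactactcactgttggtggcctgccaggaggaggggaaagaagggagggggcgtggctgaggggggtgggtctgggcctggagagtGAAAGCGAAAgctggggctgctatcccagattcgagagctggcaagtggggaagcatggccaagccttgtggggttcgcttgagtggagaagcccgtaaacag
The interferon-stimulated element was found in Psmb8, in Psme2 and at 2 places in Psmb10, and not in the window of Psmb9. It was present in 7 of the 42 member promoters, which is 16.7%, against 3.77% of all promoters. The other members that hold it were Psma4, Psmb3, Psmd7 and Psmg4.

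Instilled water alone was compared with air. No member was called with limma, where 0.0129% of all probe sets were, and 12 were higher at an unadjusted p below 0.05, where 6.27% of all probe sets were. The median change was 0.11, and 40 of 46 members lay above 0. Psmb10, Psmb8 and Psmb9 had changes of 0.52, 0.47 and 0.46, and Psmd3 had 0.34 (adjusted p = 0.101). Instilled formaldehyde against water had the same median change, 0.11. With air in place of water as the control of instillation, 25 members were higher and 2 lower, where 14.4% and 15.7% of all probe sets were called. All 3 inducible subunits were among the higher ones, with changes of 1.00 for Psmb9, 0.88 for Psmb8 (adjusted p = 0.00377) and 0.70 for Psmb10 (adjusted p = 0.000337), and Psmd3 had 0.60.

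The air rats of the 2 array sets also differed. At 6 h the second set had 4 members lower than the first and 0 higher, where 2.21% and 2.49% of all probe sets were called. Psmc6 was lower by -0.31 (SE 0.08, adjusted p = 0.0091), and Psmb4, Psmc1 and Psmd9 by -0.29, -0.27 and -0.28. Without rat 325 or 50 only 1 of the 4 was called, and without rat 53 or 322 only 2. The median over the members was -0.12. Changes at 15 ppm given above are against the air rats of its own set. Against the air rats of the first set, 3 members were higher and 6 lower at 15 ppm, where 8.85% and 6.50% of all probe sets were called. Psmd7, Psmd12 and Psmd5 were the 3, with changes of 0.19, 0.22 and 0.37.

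The air rats of the first set differed among times in 5 of the 46 members, a share near the 11.4% of all probe sets that did. Psmc6 averaged 9.85 at 6 h, 9.48 at 24 h, 9.58 at 5 days, 9.46 at 8 days and 9.65 at 19 days (adjusted p = 0.000390). Psmg4, a core chaperone, averaged 9.50, 9.81, 9.68, 9.48 and 9.62 at the same times (adjusted p = 0.00770). Without air rat 67 the count was 9, and without air rat 54 it was 8. The other members that differed were Psmd8, Psma5 and Psme3ip1, with adjusted p of 0.0178, 0.0203 and 0.0223. The air means of Psmc6 at 6 h and 24 h lay further apart than its means at 15 ppm and in air.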

How the data were processed

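RNA of 98 rats was measured on 1 Affymetrix rat expression array each. The deposited table holds log2 values for 31099 probe sets, and no source used here says how the authors summarised and normalized them. These values were taken as deposited, with no further scaling. Array medians of 5.93 to 6.07 lay close together, which does not show one scale at the higher signals where the members lie. With cyclic loess the median member change went from -0.10 to -0.05 at 2 ppm and 6 h. For instilled formaldehyde against water it went from 0.11 to 0.16. The number of arrays, mostly 4 per group, limits the precision, and the median half-width of a 95% interval was 0.145 to 0.153 on the log2 scale between 2 groups and 0.216 for a difference of 2 effects.

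After 57 control probe sets were left out, limma 3.58.1 in R 4.3.3 fitted 24 group means over 31042 probe sets with 74 residual degrees of freedom. Contrasts were tested two-sided with eBayes, with Benjamini-Hochberg adjustment across every probe set. Each exposed group was set against air of its own array set and time, and instilled formaldehyde against instilled water. No sample was dropped or imputed. Of the probe sets, 20826 named 1 gene, 436 several and 9780 none, and only the first were used to name genes. For 9 members with more than 1 probe set, the highest mean signal decided, and 6 probe sets that listed a member beside other genes were left out.

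All members were counted. Named were the called members with the largest changes, up to 10 each way, examples of each role, a set list that held the catalytic, inducible and activator subunits, and of each companion list up to 4 called genes. The members, the companion and marker lists and the tests were chosen with earlier results of these data known. Correlations used deviations from group means and 100000 permutations, two-sided. The fit was tested on simulated data. Alternatives were cyclic loess, median scaling, array weights, a filter on dim probe sets, fits on fewer groups, RNA integrity as a covariate (85 arrays had one), other controls, second probe sets and leaving out each rat.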

Additional observations from a re-analysis of the deposited data

Results flagged for a closer look

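The 70 groups of 4 rats examined were 6-h groups, for the members called at 15 ppm or after instillation and for the inducible subunits. Other members and later times were not examined. Of the 70, 3 held a rat whose gap to the nearest of the others was larger than Dixon's 95% limit for its share of the group's range. Chance gives such gaps in about 1 of 20 groups. In the formaldehyde-instilled group, rat 369 had a Psme4 signal of 8.76, which made up a gap of 0.882 of the range. Among the air rats of the second array set, rat 325 had a Psmb7 signal of 11.04 (0.854 of the range) and rat 322 a Psmd14 signal of 10.45 (0.857). A difference in effect between doses was found for a pair of members. The 15 ppm effect exceeded the 6 ppm effect at 6 h by 0.37 for Psmd5 and by 0.28 for Psmd7 in limma's test of the difference itself.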

How the results depend on the processing

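Psmd7 and Psmd5 stayed called at 15 ppm under the 11 alternatives and 8 leave-one-out fits run, and Psmd8 and Psmb4 after instillation. Shares of all probe sets are given here for the other controls only, so the remaining counts cannot be set against the whole array. The 4 calls at 15 ppm became 8 with cyclic loess and 2 within the second array set, all higher. They became 9 with array weights, 8 higher and 1 lower, and 7 without dim probe sets, 6 higher and 1 lower. Against the air rats of the first set there were 9, with a median of -0.068, and Psmc6 reversed to -0.075. The 12 calls after instillation became 19 with loess, 7 within the second set, 2 with only its groups and 27 against air, with a median of 0.20. At 6 ppm and 6 h, air of the second set gave 9 calls, 6 higher and 3 lower, in place of 0 (3.49% and 8.01% of all probe sets) and a median of 0.037. The difference between 15 and 6 ppm fell to 1 call with median scaling, 1 with only its groups and 0 with RNA integrity. Of genes with a second probe set, 1 in place of 2 was called at 15 ppm. Array weights gave 2 calls for water against air in place of 0, and 15 between the air sets in place of 4 (0 with RNA integrity). Among air times they gave 16 in place of 5, and 9 came without dim probe sets. With loess the medians were -0.034 at 2 ppm and 19 days and 0.079 for water against air. Leaving out each rat gave 2 to 5 calls at 15 ppm, 10 to 15 after instillation, 0 to 2 for the difference between doses, 1 to 4 between the air sets and 4 to 9 among air times. It gave medians of 0.079 to 0.13 for water against air and 0.0085 to 0.057 for 6 ppm at 24 h. Over the alternatives the adjusted p ran from 0.00488 to 0.564 for Psmc6 at 15 ppm and from 0.00054 to 0.118 for Psmd12. After instillation it ran from 0.00230 to 0.0905 for Psmg1, 7.01e-06 to 0.187 for Psme4, 0.00350 to 0.758 for Psmd14 and 0.000155 to 0.130 for Psmb9. Causes were not tested. No paired analysis was possible because no rat appears in more than 1 group. With 4 rats a group, the 95% half-width of a member between 2 groups had a median of about 0.15 log2 and reached 0.49. Changes beyond 0.15 could also miss the adjusted threshold, so a missing call does not exclude them. Psmd8 had 0.20 at 15 ppm (limma, adjusted p = 0.110). Psmb9 had -0.75 at 2 ppm and 19 days (limma, adjusted p = 0.424).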
